A study of Oryza sativa with 36 samples.

Results

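The change in transcript levels of the rice embryo between 12 h and 16 h of seed imbibition was measured on 6 arrays, 3 of embryo at 12 h and 3 of embryo at 16 h, out of 36 arrays in the series. The arrays were chosen by the tissue and time in their labels and by no measured value. The seeds were Oryza sativa, cultivar Nipponbare on the arrays whose labels name one. They took up sterile distilled water in the dark at 30 °C, and air was bubbled through it. Embryo and endosperm were then taken at 6 times (0, 4, 8, 12, 16 and 24 h), with 3 arrays for each tissue and time. The cultivar is not named for replicate 1 at 12 h and at 16 h. No group carries a transgene or another treatment, so the 2 embryo groups differ in their labels by 4 h of imbibition and by harvest day. The labels call the tissue embryo, whereas the growth protocol speaks of the embryonic axis, and nothing in the labels says which cells were dissected. They do not say either whether replicates came from separate batches of seed, so p-values here measure only how far these samples spread, and that spread may be technical.

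As background, a dry cereal embryo holds cells stopped mainly before DNA replication. After water uptake, genes for DNA synthesis are switched on first, and genes for mitosis follow when cells approach division. B-type cyclins and B-type cyclin-dependent kinases drive entry into mitosis, and kinesins of several families build the spindle and the phragmoplast, the structure that lays down the new cell plate. Growth of the axis also needs loosening of the cell wall, which expansins and glucanases bring about, and water flow through aquaporins.

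Signals were on the log2 scale after GCRMA, for 57194 rice probe sets (groups of short probes against 1 transcript), so a difference of 1 is a doubling of signal. GCRMA leaves a floor under dim probe sets, and a rise from that floor is understated. The 64 reporter probe sets, which are not rice sequences, gave a working background: 95% of their values on the embryo arrays lay below 3.42, called the reporter level from here on. In all sentences with 3 values per time, they stand in the order of replicates 1, 4 and 5, which has no meaning beyond the name. Unless SD is written, ± gives the standard error of a log2 difference in a linear model of all 36 arrays, with n = 3 arrays in each group. In whole-tissue RNA, more cells of a type and more transcript in each cell cannot be told apart.

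By the embryo and starchy endosperm markers, the arrays fitted their tissue label. The 15 embryo markers, among them OSH1 and WOX genes of the meristems, averaged 6.09 to 6.26 on the 6 arrays and 3.87 to 4.20 on the endosperm arrays of the same times. Not every member set the tissues apart, since EMP1 had means of 12.26 and 11.59 in embryo and 11.80 and 11.19 in endosperm at 12 h and 16 h. Of these 15, 5 were below the reporter level in embryo and 8 in endosperm at each time. The 14 starchy endosperm markers, mainly glutelins and prolamins, averaged 4.61 to 6.26 at 12 h and 4.19 to 5.64 at 16 h in embryo, against 11.08 to 11.34 in endosperm. The glutelins GLUA1 and GLUD1, named after their values were seen, were uneven across the embryo arrays. At 12 h replicate 5 was the highest (4.07, 3.64 and 6.36 for GLUA1, 4.17, 4.18 and 6.41 for GLUD1). At 16 h it was the lowest (5.10, 4.45 and 3.16, then 5.35, 5.18 and 3.13). The 8 aleurone and scutellum markers averaged 8.07 to 8.74 at 12 h and 8.03 to 8.64 at 16 h in embryo. In endosperm they averaged 9.04 to 9.23 and 9.23 to 9.48, so this list separated the tissues only slightly. In none of the 3 marker lists was a gene called different between 12 h and 16 h. Differences between the 3′ and 5′ control probe sets, a sign of RNA integrity, were 1.57 to 1.62 at 12 h and 1.50 to 1.60 at 16 h, whereas the ribosomal RNA controls were 8.61 to 9.19 at 12 h and 8.39 to 8.52 at 16 h and did not overlap. The part of these controls and of the uneven glutelin signal in the results was not tested.

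The 12 h group was uneven, and every result below has to be read with this in mind. On the first principal component of the 18 embryo arrays, which held 69.6% of their variance and ordered them by time, the 8 h arrays scored -18.1 to 4.1 and the 16 h arrays 90.9 to 106.0. The 12 h arrays scored 85.0, 74.2 and 36.3, so replicate 5 lay between the 8 h arrays and the other 12 h arrays. Its correlation with the other 12 h arrays was 0.9895 and 0.9945, whereas those correlated with each other at 0.9961. The 16 h arrays correlated with each other at 0.995 to 0.9966. The main probe set counts are therefore also given without replicate 5 of 12 h. Counts of genes and list members use all arrays unless stated. Of the 47 named genes called, 27 were still called without that array.

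**Figure D1:**
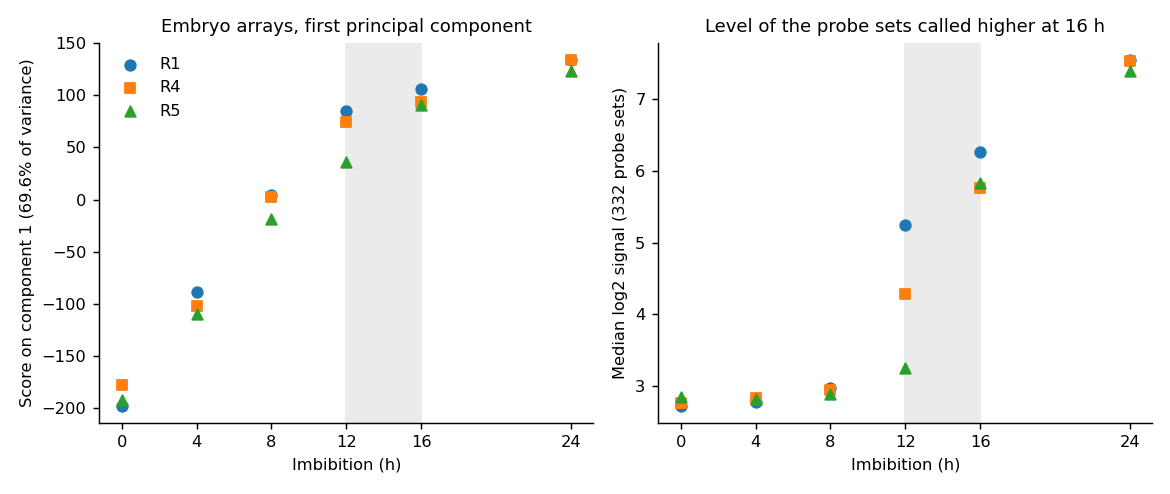
Embryo arrays by hours of imbibition, with the score on the first principal component on the left and the median log2 signal of the 332 probe sets called higher at 16 h on the right. Symbols mark replicates 1, 4 and 5 and the grey band marks 12 h to 16 h. At 12 h the medians on the right were 5.25, 4.29 and 3.25, against 5.76 to 6.26 at 16 h and 2.89 to 2.97 at 8 h.

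Between 12 h and 16 h, 332 probe sets rose and 34 fell in the embryo. They are 0.58% and 0.0594% of the 57194 tested, 0.64% in all, at a Benjamini-Hochberg adjusted p below 0.05 and an absolute log2 difference of at least 1. The leading rises with a gene name were B-type cyclins, a phragmoplast kinesin, an auxin conjugate hydrolase and a B-type cyclin-dependent kinase. Of 17905 genes, each taken by its brightest probe set, 228 rose (1.27%) and 18 fell (0.101%), and of the 2472 genes with a name, 44 rose (1.78%) and 3 fell (0.121%). The 3 arrays of 16 h lay above all 3 of 12 h in 291 of the 332 probe sets that rose, and below them in 25 of the 34 that fell. Over all probe sets, 3.86% had all 16 h arrays above and 25.7% all below, the latter mostly by small steps at the floor. Among probe sets above the median level these shares were 7.31% and 9.43%.

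The median level of the 332 probe sets was 2.78, 2.93, 4.20, 5.99 and 7.46 at 0, 8, 12, 16 and 24 h. Of the 332, 85 had a 12 h mean below the reporter level. At 12 h, 34 of them were below it in replicate 1, 105 in replicate 4 and 185 in replicate 5, and at 16 h between 0 and 9 were. In endosperm, 273 of the 332 had means below the reporter level at both 12 h and 16 h. The 34 probe sets that fell ran the opposite way, with medians of 8.01, 7.38, 5.99, 4.82 and 3.69 at the same times.

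Replicate 5 was the lowest 12 h array in 292 of the 332 probe sets and replicate 1 the highest in 293. In the 34 that fell, replicate 5 was the highest in 33. Among the 28597 probe sets above the median level, replicate 5 was the lowest in 9530 and the highest in 13283. The median SD of the 332 probe sets was 0.86 at 12 h, against 0.10 at 8 h, 0.34 at 16 h and 0.21 at 24 h. On the 8 h arrays 220 to 231 of the 332 were below the reporter level, so the SD at 8 h was measured mostly near the floor. Without replicate 5 of 12 h, 176 probe sets rose and 9 fell, and 172 and 6 of these were among the 332 and the 34. Without replicate 1 of 12 h the counts were 551 and 181. Leaving out replicate 4 of 12 h gave 346 and 36, leaving out replicate 1 of 16 h gave 198 and 15, leaving out replicate 4 of 16 h gave 379 and 16, and leaving out replicate 5 of 16 h gave 332 and 89. Rises called in all 6 fits that leave out 1 of the 6 arrays numbered 150, and falls 4.

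The calls rest on a spread shared by 12 groups. Of the 332, 214 had endosperm means below the reporter level at all 6 times, and arrays at the floor hardly differ. For such probe sets the shared spread can be smaller than that of the 12 h arrays. Their standard errors and adjusted p-values then do not measure how far the 12 h arrays spread. Fitted on the 18 embryo arrays alone, 48 probe sets rose and 2 fell. With the 6 arrays alone, limma called 0 in each direction, although 1491 rose and 1745 fell at an unadjusted p below 0.05. In that fit the standard error of CYCB1-1 was 1.05, against 0.51 in the fit of all arrays. Harvest day also moved with time, since each replicate's 16 h array carries a later day than its 12 h array. With harvest day as a block 426 rose and 290 fell. A single day holds both groups, in replicate 5 of 12 h and replicate 4 of 16 h, and only this day links 12 h with 16 h in the blocked fit. The harvest day block, here and below, is therefore no check independent of replicate 5 of 12 h. Within this pair, 313 of the 332 were at least 1 higher at 16 h and 32 of the 34 at least 1 lower, against 978 higher and 723 lower of all 57194. The pair contains the 12 h array that stands apart, and its 2 arrays are among the 6 that gave the calls. These counts are therefore no separate support, and a pair of arrays gives no test.

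**Figure D2:**
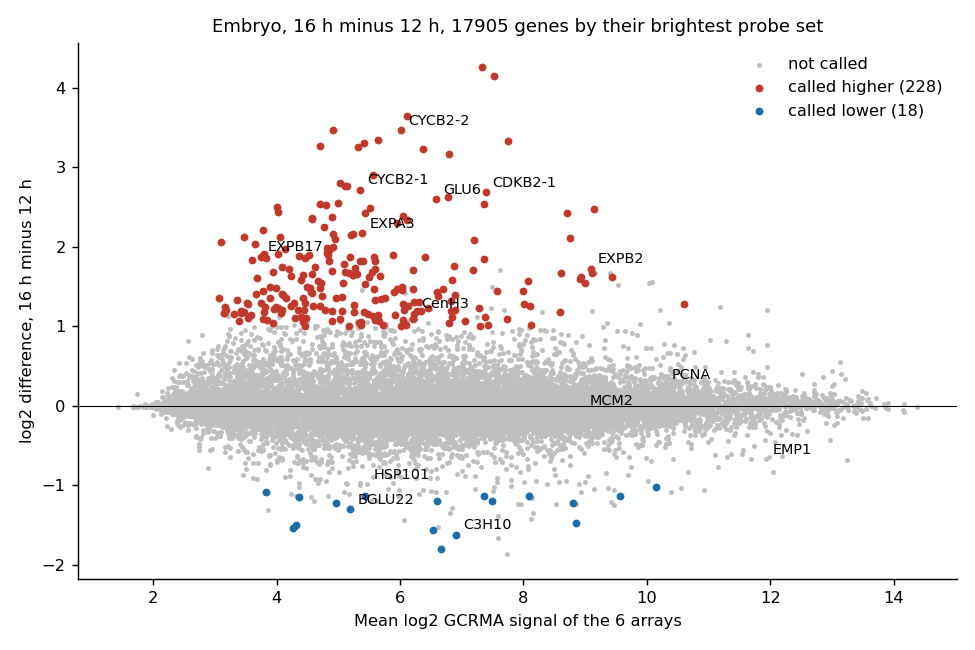
Difference between 16 h and 12 h in embryo (log2) against the mean log2 GCRMA signal of the 6 arrays, for 17905 genes by their brightest probe set. Red points are the 228 genes called higher and blue points the 18 called lower. The largest rises lie at low to moderate mean signal, and MCM2, PCNA, EMP1 and HSP101 are labelled although they were not called.

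Genes of mitosis were among the largest named rises. CYCB2-2 (LOC4342121), a B-type cyclin, read 6.71, 3.41 and 2.73 at 12 h and 7.99, 7.53 and 7.75 at 16 h. All 16 h arrays lay above all 12 h arrays, replicate 5 of 12 h was below the reporter level and replicate 4 just under it. The mean rose from 4.28 ± 2.13 (SD) to 7.76 ± 0.23 (SD), by 3.47 ± 0.54, which is 11.1-fold (adjusted p = 4.17e-04), and its other probe set rose by 2.74. CYCB1-1 (LOC4327547), the B-type cyclin most used to mark dividing cells, read 6.10, 3.48 and 2.29 at 12 h and 7.74, 7.04 and 7.14 at 16 h. It rose by 3.35 ± 0.51, or 10.2-fold (adjusted p = 3.39e-04). Again the 12 h arrays were spread over almost 4 log2 units while the 16 h arrays lay within 1.

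CYCB2-1 read 5.88, 3.52 and 2.57 at 12 h and 6.94, 6.65 and 6.54 at 16 h, and rose by 2.72 ± 0.42 (adjusted p = 3.80e-04). CDKB2-1 (LOC4346016), a plant-specific kinase that partners mitotic cyclins, read 7.91, 5.94 and 4.28 and then 9.06, 8.37 and 8.76. It rose by 2.69 ± 0.48 (adjusted p = 1.98e-03), and its groups did not overlap. CYCA2-1, an A-type cyclin of the later cell cycle named after its values were seen, read 6.83, 5.47 and 4.11 at 12 h and 7.16, 6.72 and 6.94 at 16 h, so that replicate 1 of 12 h lay within the 16 h range. It rose by 1.47 ± 0.36 (adjusted p = 0.0317).

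In the list of mitotic cyclins and B-type kinases, 5 of 8 genes rose and 0 fell, beside 1.27% rising and 0.101% falling among all 17905 genes. The median was 2.08, beside -0.02 for all genes. This list, like the others, was chosen with earlier results of these data known. Of the other members, CYCA3-2 read 6.03, 5.50 and 4.37 and then 6.03, 6.25 and 6.36 (difference 0.92 ± 0.25, adjusted p = 0.0777). CYCA1-4 differed by -0.25 and CYCB1-3 by 0.00 at a level of 2.70, below the reporter level. With replicate 5 of 12 h left out, CYCB2-2, CYCB1-1, CYCB2-1 and CDKB2-1 rose by 2.70, 2.51, 2.01 and 1.81 and were still called, while CYCA2-1 was not (0.79, adjusted p = 0.294). In the fit of the embryo arrays alone none of the 5 was called, with adjusted p between 0.066 for CYCB1-1 and 0.387 for CYCA2-1.

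**Figure D3:**
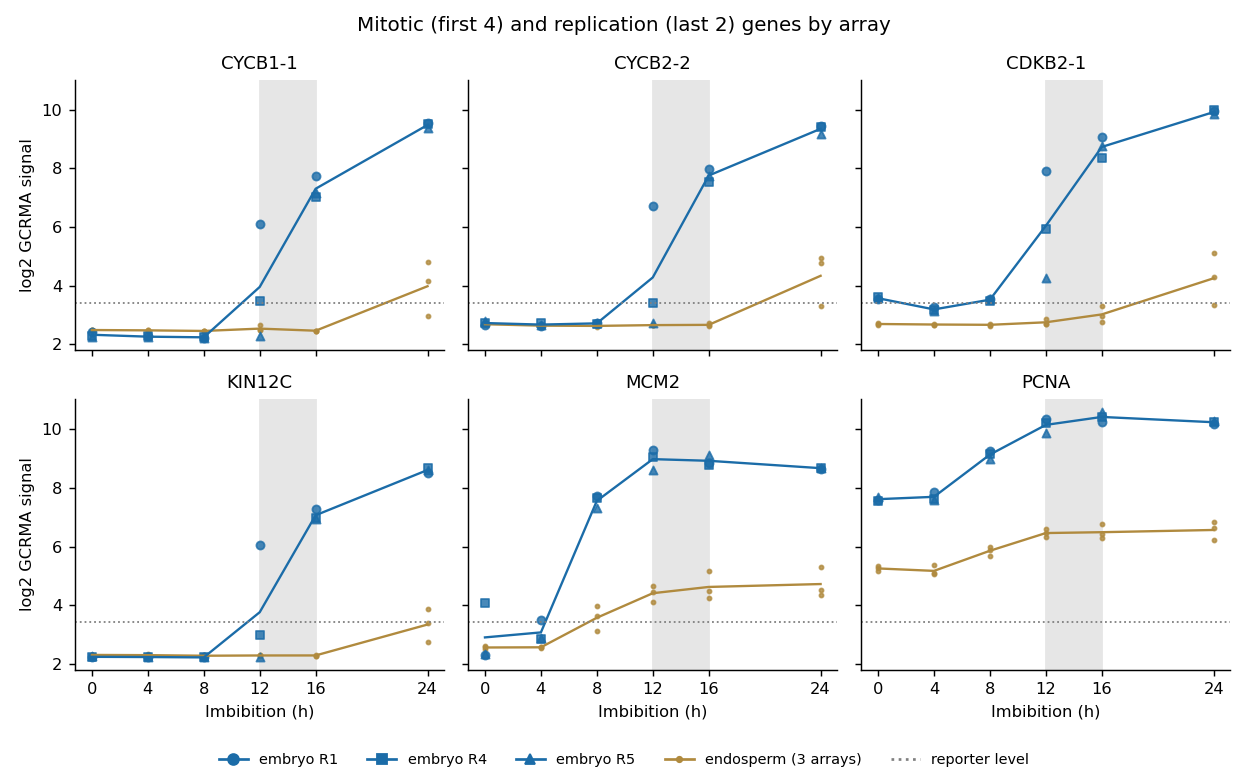
Log2 GCRMA signal of 4 mitotic and 2 replication genes against hours of imbibition. Points are single arrays, lines join group means, blue is embryo with a symbol for each replicate, and brown is endosperm. The dotted line is the reporter level of 3.42 and the grey band marks 12 h to 16 h, where the mitotic genes rise while MCM2 and PCNA were not called.

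Some kinesins rose. KIN12C (LOC4333349), of the kinesin-12 family that works at the phragmoplast, read 6.06, 2.99 and 2.24 at 12 h and 7.29, 6.97 and 6.94 at 16 h. The groups did not overlap, and the rise was 3.30 ± 0.49, or 9.88-fold (adjusted p = 2.38e-04), against 2.55 without replicate 5 of 12 h. KIN14R read 3.90, 2.92 and 2.82 and then 5.30, 4.68 and 4.90, a rise of 1.75 ± 0.18 (adjusted p = 2.30e-06). KIN14E read 5.20, 3.11 and 2.89 and then 5.41, 5.42 and 5.63, a rise of 1.75 ± 0.32 (adjusted p = 2.17e-03). Replicate 1 of 12 h was already close to the 16 h level for KIN14E but not for KIN14R.

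The list of mitotic kinesins, spindle and cytokinesis genes had 7 of 25 rising and 0 falling, with a median of 0.36, beside 1.27% rising among all genes. The other 4, named after their values were seen, were KIN12E (1.48), KIN14A (1.36), KIN5C (1.2), a member of the family that pushes spindle poles apart, and KIN14H (1.15). The 18 members not called lay between -0.25 and 0.77. KIN14A, KIN5C and KIN14H were not called without replicate 5 of 12 h (1.06, 0.61 and 0.65), and KIN14A was not called with the harvest day block either (adjusted p = 0.0921). This list does not hold the kinesin-10 genes, which came up through their own rises. KIN10A (LOC4331094), known in rice as STD1 and needed for normal cytokinesis there, read 4.81, 2.70 and 2.65 at 12 h and 6.16, 5.49 and 5.62 at 16 h. It rose by 2.37 ± 0.33, or 5.16-fold (adjusted p = 1.37e-04), and KIN10B rose by 2.25 ± 0.36 (adjusted p = 6.28e-04). KIN10C, chosen after its values were seen, rose by 1.49 ± 0.32 (adjusted p = 0.0125), and was not called without replicate 5 of 12 h (1.24, adjusted p = 0.126) or with the harvest day block (1.43, adjusted p = 0.125). Of all 32 genes named as a numbered and lettered kinesin, a grouping also made after the values were seen, 10 rose and 0 fell, with a median of 0.38. Leaving out replicate 5 or replicate 4 of 12 h, or replicate 1 of 16 h, gave 4 calls among the 25 in each case, and the embryo arrays alone gave 1.

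CenH3 (LOC4339159), the centromeric histone H3 that is loaded onto centromeres, was also named after its values were seen. It read 6.07, 5.63 and 5.25 at 12 h and 6.73, 6.83 and 6.87 at 16 h. Its 16 h arrays lay within 0.2 of each other and above all 12 h arrays, and the rise was 1.16 ± 0.16 (adjusted p = 1.57e-04), while without replicate 5 of 12 h its 0.96 was below the minimum. RSS1 (LOC4329928), a rice cell-cycle regulator that keeps meristem cells dividing under salt stress, had a different course. Its mean stood at 7.86, 6.49, 4.83, 6.0 and 7.85 at 4, 8, 12, 16 and 24 h. The arrays read 5.40, 4.14 and 4.94 at 12 h and 6.20, 5.57 and 6.24 at 16 h, a rise of 1.18 ± 0.27 (adjusted p = 0.0209). When replicate 5 of 12 h was left out its adjusted p was 0.0641, with the harvest day block the difference was 0.85 (adjusted p = 0.428), and within the same-day pair it was 0.63 higher at 16 h.

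No gene of DNA replication was called in these hours. MCM2, a subunit of the replicative helicase, read 9.28, 9.04 and 8.62 at 12 h and 8.86, 8.79 and 9.12 at 16 h, with overlapping groups and a difference of -0.06 ± 0.33 (adjusted p = 0.952). PCNA, the sliding clamp of the replicative polymerases, read 10.35, 10.22 and 9.87 and then 10.25, 10.41 and 10.60, a difference of 0.27 ± 0.14 (adjusted p = 0.599). Of 30 replication genes 0 were called in either direction, with a median of 0.09 and a range of -0.17 to 0.74, and 0 of the 30 passed an adjusted p below 0.05 without a minimum fold. Among all genes 1.27% rose and 0.101% fell, so 0 calls among 30 is near the background. Their median level was 5.04, 6.48, 7.60, 7.62 and 7.34 at 4, 8, 12, 16 and 24 h, while that of the mitotic list was 2.74, 2.87, 4.78, 6.83 and 8.25. The highest replication difference was that of RPA1B, a subunit of the single-strand binding complex, which read 8.48, 7.81 and 7.02 and then 8.55, 8.45 and 8.55.

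Among 19 D-type cyclins, cell-cycle inhibitors and other regulators of entry into the cycle, 0 were called, with a median of -0.06. CYCD5-2 passed the adjusted p with a difference below the minimum, reading 5.68, 5.91 and 5.53 and then 6.17, 6.18 and 6.26 (0.50 ± 0.10, adjusted p = 4.25e-03). The 5 H2B histone genes measured differed by 0.14 to 0.29 at levels above 11, and 0 were called. Tubulins, which form the microtubules of spindle and wall, had 0 of 10 called and a median of 0.20. TUBB8 read 8.38, 8.50 and 6.27 at 12 h and 8.98, 8.99 and 8.71 at 16 h, a difference of 1.18 ± 0.35 (adjusted p = 0.114). Its difference was 0.45 without replicate 5 of 12 h. With 1.27% of all genes rising, 0 calls in lists of these sizes is near the background.

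**Figure D4:**
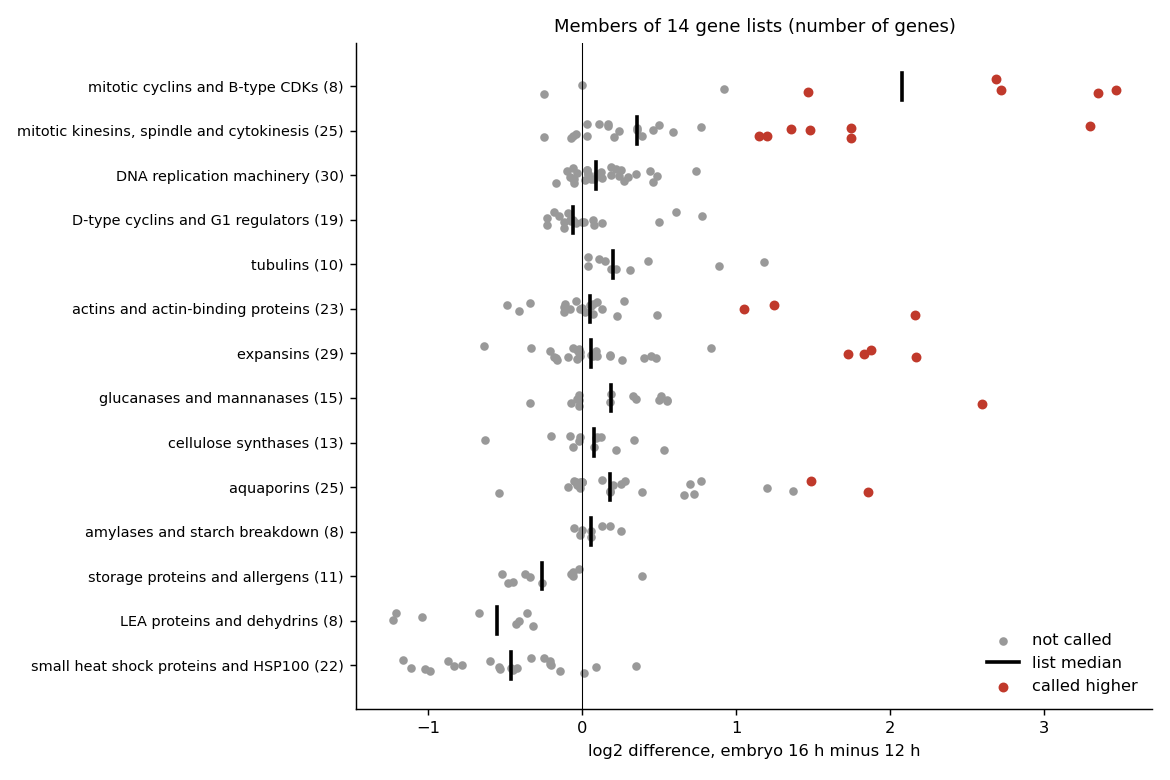
Difference between 16 h and 12 h in embryo (log2) for the members of 14 gene lists, 1 point a gene, with the number of genes beside each list name. Red points were called higher, grey points were not called, and black bars are list medians. The mitotic cyclin list has a median of 2.08, and the other medians lie between -0.55 and 0.36.

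Among expansins, EXPA3 (LOC4338278), an alpha-expansin, read 4.77, 4.92 and 3.21 at 12 h and 6.74, 6.57 and 6.12 at 16 h. The groups did not overlap, and it rose by 2.17 ± 0.23, or 4.50-fold (adjusted p = 4.18e-06). EXPB17 (LOC4336479), a beta-expansin, read 3.26, 2.59 and 2.55 and then 4.74, 4.56 and 4.74, a rise of 1.88 ± 0.16 (adjusted p = 9.82e-08). All 3 of its 12 h arrays were below the reporter level and replicate 5 did not stand apart from replicate 4, but its other, dimmer probe set differed by -0.02. EXPA8 read 5.26, 4.76 and 3.31 and then 6.76, 6.38 and 5.66, a rise of 1.83 ± 0.28 (adjusted p = 3.08e-04).

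EXPB2 was already bright at 12 h, with 9.09, 8.86 and 6.73 followed by 10.40, 9.85 and 9.61 at 16 h. It rose by 1.73 ± 0.37 (adjusted p = 0.0124), and without replicate 5 of 12 h the difference was 0.98 (adjusted p = 0.0782). In all, 4 of 29 expansins rose and 0 fell, beside 1.27% rising among all genes, with a median of 0.06, and 8 of the 29 were below the reporter level at both times. EXPA7, close to the top of the scale, had means of 13.19 and 12.97. EXPB11 passed the adjusted p with a difference of 0.84 ± 0.18 (adjusted p = 0.0117), below the minimum. EXPB3 read 9.72, 10.05 and 9.36 and then 10.32, 9.96 and 10.19, and was not called (0.45 ± 0.26, adjusted p = 0.619).

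GLU6 (LOC4337384), named as an endoglucanase, read 7.01, 5.60 and 3.25 at 12 h and 8.52, 7.47 and 7.67 at 16 h. It rose by 2.60 ± 0.49, or 6.06-fold (adjusted p = 3.56e-03), as 1 of 15 glucanases and mannanases (median 0.19). The rise was 1.58 without replicate 5 of 12 h. CSLD1, a cellulose synthase-like gene known in rice for its part in root hairs, read 4.29, 3.65 and 2.27 and then 5.35, 4.58 and 4.48. It rose by 1.40 ± 0.27 (adjusted p = 4.26e-03), the 1 call among 20 cellulose synthase-like genes, and without replicate 5 of 12 h its difference of 0.83 was below the minimum. Cellulose synthases themselves had 0 of 13 called and a median of 0.08. With 1.27% of all genes rising, 0 or 1 call in lists of these sizes is no result about the list. CSLF6, which makes the mixed-linkage glucan of grass walls, read 9.13, 9.47 and 8.32 and then 9.36, 9.34 and 8.95 (0.24 ± 0.22, adjusted p = 0.768).

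CAD8A (LOC4346988), of the cinnamyl alcohol dehydrogenase family of lignin synthesis, read 5.86, 5.58 and 3.36 at 12 h and 7.22, 6.48 and 6.79 at 16 h. It rose by 1.89 ± 0.34 (adjusted p = 1.89e-03), the 1 call among 26 phenylpropanoid, lignin and flavonoid genes, and by 1.11 without replicate 5 of 12 h. Among all genes 1.27% rose, so 1 call in a list of 26 is no result about the list. AT4, the acyltransferase also named PMT that joins p-coumarate to lignin precursors, was chosen after its values were seen. It read 8.77, 8.77 and 6.83 and then 10.03, 9.57 and 9.63, a rise of 1.62 ± 0.39 (adjusted p = 0.0282), and was not called without replicate 5 of 12 h (0.97, adjusted p = 0.308). The family 1 beta-glucosidases BGLU30 and BGLU12, also named after their values were seen, rose by 1.87 ± 0.31 and 1.60 ± 0.36, whereas BGLU22 was 1 of the 3 named genes that fell. BGLU12 was not called without replicate 5 of 12 h (0.98, adjusted p = 0.204), and its other probe set differed by 0.25.

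Actin-depolymerising factors, which cut and turn over actin filaments in growing cells, supplied the 3 calls among 23 actins and actin-binding proteins (median 0.05), where 1.27% of all genes rose. ADF9 read 5.45, 3.64 and 2.39 at 12 h and 6.98, 5.18 and 5.81 at 16 h, with replicate 1 of 12 h above replicate 4 of 16 h. It rose by 2.16 ± 0.42 (adjusted p = 4.26e-03). ADF1 rose by 1.25 ± 0.25 from 8.01, 7.93 and 6.50 to 9.19, 8.49 and 8.52, and ADF6 by 1.05 ± 0.24 from 5.52, 5.14 and 3.85 to 6.23, 5.59 and 5.84. Of these only ADF9 was called without replicate 5 of 12 h, with a rise of 1.44 (adjusted p = 0.0464). ADF6 was not called with the harvest day block either (1.11, adjusted p = 0.13). The actins ACT1, ACT2, ACT3 and ACT7 differed by 0.00, 0.27, 0.05 and 0.07.

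Of 25 aquaporins 2 rose and 0 fell, with a median of 0.18, beside 1.27% rising among all genes. NIP2-2 (LOC4340558), the silicon channel also named Lsi6, read 4.71, 3.56 and 2.32 at 12 h and 5.85, 5.26 and 5.04 at 16 h, a rise of 1.86 ± 0.30 (adjusted p = 5.88e-04), or of 1.25 without replicate 5 of 12 h. PIP2-2, a plasma membrane water channel, read 4.57, 3.73 and 3.06 and then 5.63, 4.66 and 5.54, a rise of 1.49 ± 0.26 (adjusted p = 1.67e-03), while its other probe set differed by -0.04. PIP1-2, another plasma membrane channel, read 10.50, 10.26 and 9.92 and then 11.19, 10.82 and 10.85, with a difference below the minimum (0.73 ± 0.13, adjusted p = 2.24e-03). Of 74 mineral ion transporters NIP2-2 was the 1 call, a share near the 1.27% of all genes, and 36 were below the reporter level at both times.

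**Figure D5:**
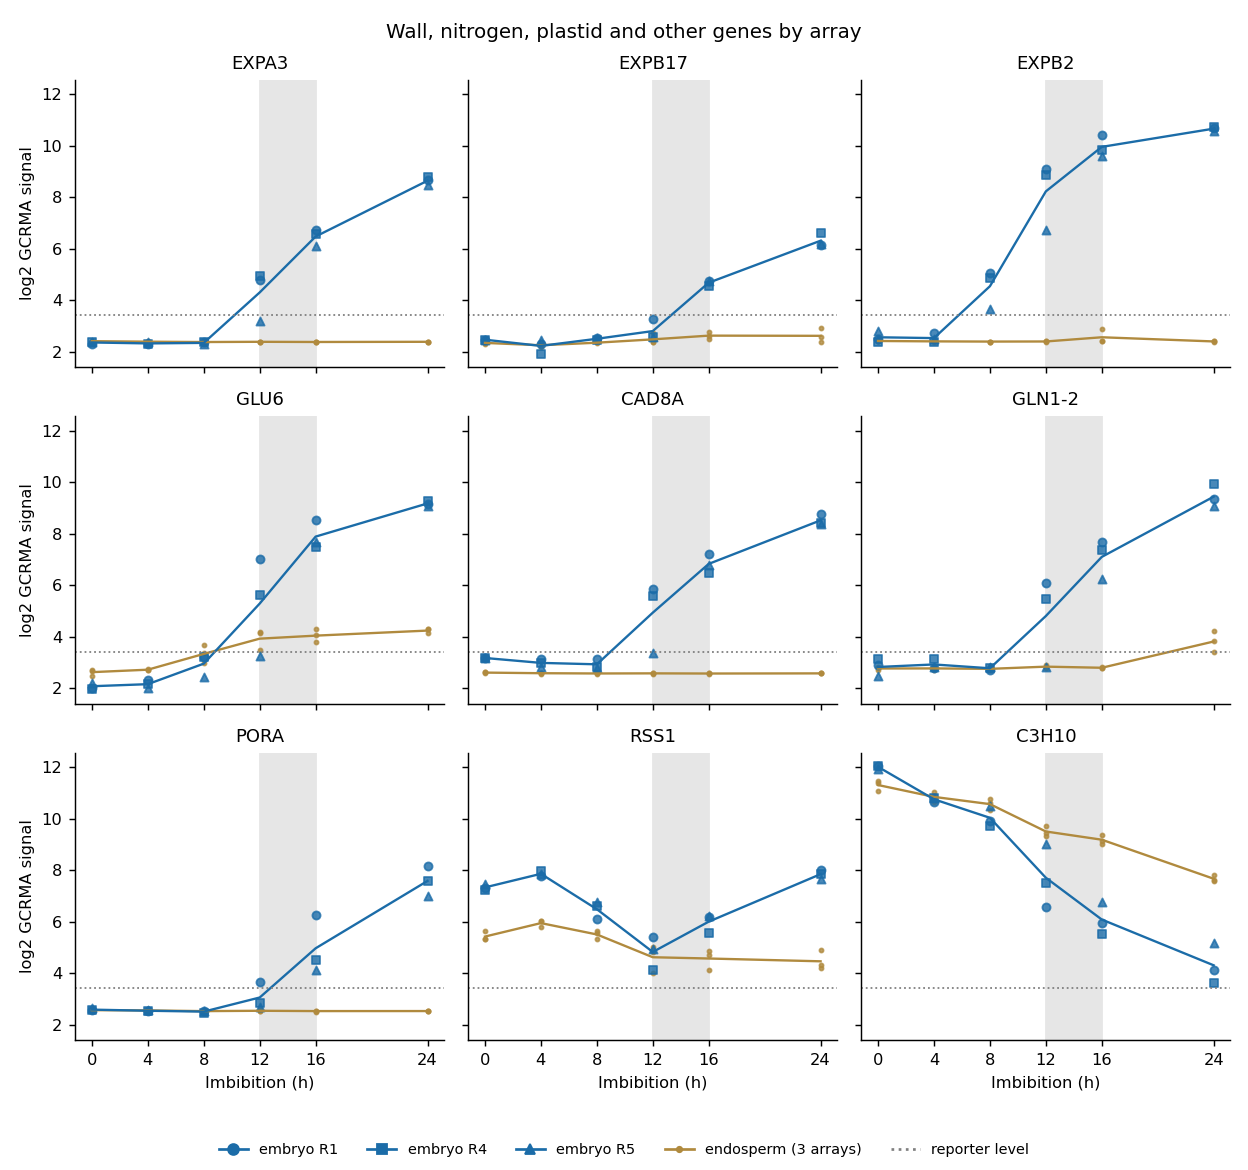
Log2 GCRMA signal of 9 genes against hours of imbibition, drawn as in the plot of mitotic genes with embryo in blue, endosperm in brown and the reporter level dotted. EXPA3, GLU6, CAD8A and GLN1-2 stay near the reporter level or below to 8 h and rise through 12 h and 16 h, with replicate 5 of 12 h the lowest of its group. EXPB17 and PORA start later, RSS1 dips at 12 h, and C3H10 declines from 0 h.

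Genes of nitrogen, plastid and hormone metabolism gave single calls. Among all genes 1.27% rose, so 1 call in a list of these sizes is no result about the list. GLN1-2 (LOC4332108), a cytosolic glutamine synthetase that assimilates ammonium, read 6.10, 5.47 and 2.84 at 12 h and 7.70, 7.35 and 6.26 at 16 h. It rose by 2.30 ± 0.47 (adjusted p = 7.41e-03), 1 of 16 genes of nitrogen uptake and assimilation, and by 1.31 without replicate 5 of 12 h. PORA (LOC4337415), the protochlorophyllide oxidoreductase that is known for accumulating in dark-grown seedlings, read 3.67, 2.84 and 2.67 and then 6.26, 4.53 and 4.12. It rose by 1.91 ± 0.32 (adjusted p = 1.05e-03) in seeds held in darkness, 1 of 15 photosynthesis and chlorophyll genes. Here the 16 h arrays were the more spread, with replicate 1 the highest. LP02, also listed as OEE3, a photosystem II name, read 5.26, 3.88 and 3.26 and then 6.63, 6.15 and 6.05 (2.15 ± 0.33, adjusted p = 3.43e-04).

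ILL3 (LOC4334707), named as a hydrolase that releases auxin from amino acid conjugates, read 5.40, 3.14 and 2.75 at 12 h and 7.19, 5.81 and 6.56 at 16 h. It rose by 2.76 ± 0.42, or 6.78-fold (adjusted p = 3.09e-04), and its mean at 24 h was 10.32. Of 59 genes of auxin synthesis, transport and response 0 were called (median 0.00), and IAA12, an Aux/IAA repressor, differed by 0.85 ± 0.28 (adjusted p = 0.174). AOS4, an allene oxide synthase of the jasmonate pathway, read 4.76, 3.77 and 3.13 and then 6.19, 4.62 and 5.55, so that replicate 1 of 12 h lay above replicate 4 of 16 h. It rose by 1.57 ± 0.29 (adjusted p = 2.42e-03), the 1 call among 39 jasmonate and oxylipin genes, and was not called with the harvest day block (1.38, adjusted p = 0.0721). LOX1.1, a lipoxygenase, read 10.26, 9.69 and 7.83 and then 11.21, 10.37 and 10.85, and was not called (1.55 ± 0.54, adjusted p = 0.232). TIFY10B, a jasmonate repressor, differed by 0.15. With 1.27% of all genes rising, 0 of 59 auxin genes and 1 of 39 jasmonate and oxylipin genes are near the background.

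URH2 (LOC4347891), named as a uridine hydrolase, had a small standard error. It read 3.37, 2.76 and 2.50 at 12 h and 4.80, 4.37 and 4.31 at 16 h, and rose by 1.61 ± 0.13 (adjusted p = 8.63e-08). BURP2, which carries a plant BURP domain, read 2.84, 2.76 and 2.93 and then 5.14, 4.52 and 4.58, so that no 12 h array stood apart. It rose by 1.91 ± 0.37 (adjusted p = 4.62e-03), but its other probe set differed by 0.14, and it was not called with the harvest day block (1.66, adjusted p = 0.0952). CASPL1U3, of the CASP-like membrane proteins, rose by 1.90 ± 0.24 from 4.42, 4.32 and 2.90 to 6.37, 5.57 and 5.40. The named genes called in the fit of the 18 embryo arrays alone were 6, namely EXPA3, BURP2, EXPB17, KIN14R, URH2 and CenH3. Among the remaining rises, named after their values were seen, the metallothionein MT2B rose by 1.09 on 1 of its 4 probe sets, while MT4C (1.38), MIF1 (1.09) and OsGT3 (1.02) have 1 probe set each. None of these 4 was called without replicate 5 of 12 h, with differences of 0.81, 0.88, 0.78 and 0.46, and MT2B was not called with the harvest day block either (adjusted p = 0.0723).

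The largest rises of all had no name in the tables used. LOC4339260 read 8.38, 4.39 and 2.82 at 12 h and 9.79, 9.24 and 9.35 at 16 h, a rise of 4.26 ± 0.70, or 19.2-fold (adjusted p = 8.15e-04), and of 3.07 without replicate 5 of 12 h. LOC4325096 read 8.26, 5.12 and 2.93 and then 10.01, 9.37 and 9.39, a rise of 4.15 ± 0.68 (adjusted p = 8.16e-04), or of 2.90 without that array. Both showed the same order of 12 h arrays as the B-type cyclins, from replicate 1 at more than 8 down to replicate 5 below the reporter level. Of the 332 probe sets that rose, 82 could not be assigned to a single gene.

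Few genes fell, and the 3 with a name had lower means at 12 h than at 8 h. C3H10 (LOC4327885), a CCCH zinc finger gene named after its values were seen, read 6.58, 7.52 and 9.03 at 12 h and 5.96, 5.51 and 6.78 at 16 h, after means of 12.01 at 0 h and 10.03 at 8 h. It fell by 1.62 on the log2 scale (SE 0.40, adjusted p = 0.0330), and its groups overlapped. BGLU22 read 4.93, 5.57 and 7.03 and then 4.47, 4.27 and 4.89, with a difference of -1.30 ± 0.32 (adjusted p = 0.0362). CASPL1E1 read 7.34, 7.72 and 8.71 and then 6.79, 6.65 and 6.96, with a difference of -1.13 ± 0.29 (adjusted p = 0.0462). In all 3, replicate 5 of 12 h was the highest array, and none was called without it. BGLU22 was not called with the harvest day block either (adjusted p = 0.0719). The largest unnamed falls were those of LOC4340902, which read 6.46, 7.31 and 8.92 and then 5.26, 5.44 and 6.60 (-1.80 ± 0.42), and LOC4323923 (-1.56 ± 0.37). Neither was called without replicate 5 of 12 h (-1.12 and -0.99).

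Of 8 late embryogenesis abundant proteins and dehydrins, which protect dry tissue, 0 were called, although all 8 differences were negative, between -1.23 and -0.32 with a median of -0.55. EMP1 read 11.89, 12.10 and 12.80 at 12 h and 10.87, 11.79 and 12.12 at 16 h (-0.67 ± 0.26, adjusted p = 0.332). RAB21, a dehydrin, read 12.76, 12.43 and 13.08 and then 12.44, 12.30 and 12.57 (-0.32 ± 0.14, adjusted p = 0.445). With the replicate number as a block 2 of the 8 were called lower, with the harvest day as a block 3, and with 1 of the 6 arrays left out 0 to 3. Of 22 small heat shock proteins and HSP100 genes 0 were called (median -0.46), and with harvest day as a block 5 were called lower. Among all genes 0.101% fell, so 0 calls in lists of 8 and 22 is near the background. That share belongs to the main fit, where 34 of all 57194 probe sets were called lower. The replicate block called 68 lower, the harvest day block 290, and the fits with 1 array left out 9 to 181. HSP101, a disaggregase, read 5.06, 5.82 and 6.98 and then 4.51, 4.76 and 5.63 (-0.99 ± 0.31, adjusted p = 0.142).

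Of 55 lists described, 12 held a gene that rose, 0 held a gene that fell and 43 held neither. No gene was called among cytosolic ribosomal proteins (24), proteasome subunits (16), glycolysis (11), the tricarboxylic acid cycle and respiration (15), gibberellin genes (15), abscisic acid genes (24), homeobox and meristem genes (61), amylases and starch breakdown (8) or storage proteins and allergens (11). Their medians lay between -0.26 for the storage proteins and 0.14 for the respiration genes. AMY3A, an alpha-amylase bright in endosperm, stood at 2.30 and 2.28 in embryo, below the reporter level. PDC2, a pyruvate decarboxylase of fermentation, stood at 12.54 and 12.46, and ICL, the isocitrate lyase of the glyoxylate cycle, at 9.85 and 10.00. OSH1, the homeobox gene of the shoot meristem, stood at 9.80 and 9.66, and SAPK7, a stress-activated kinase, at 9.40 and 9.45. With 1.27% of all genes rising, the absence of a call in lists of these sizes is near the background. Over all lists, 27 of the 957 genes rose.

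In the endosperm over the same hours the 5 called mitotic genes had means below the reporter level, and the difference between tissues was tested as an interaction. The embryo step exceeded the endosperm step for 99 probe sets (0.173%) and was below it for 2 (0.0035%). Of the 332 embryo rises, 94 were among the 99. This overlap is no separate support, since the contrast contains the embryo step itself. In endosperm, 273 of the 332 were below the reporter level at both times. The largest named differences were those of CYCB2-2 (3.46, adjusted p = 0.0489), CYCB1-1 (3.42, adjusted p = 0.0345), KIN12C (3.30, adjusted p = 0.0322), ILL3 (2.71, adjusted p = 0.0466) and CYCB2-1 (2.71, adjusted p = 0.0467). CYCB1-1 had means of 2.54 and 2.47 in endosperm at 12 h and 16 h, and the mitotic list as a whole had a median difference of 0.01 there. CDKB2-1, with endosperm means of 2.76 and 3.02, was not called in this contrast (2.42, adjusted p = 0.224). The contrast called 60 and 2 without replicate 5 of 12 h, 336 and 19 without replicate 1 of 12 h, 41 and 4 without replicate 1 of 16 h, 165 and 2 without replicate 4 of 16 h and 120 and 5 without replicate 5 of 16 h.

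Against the preceding 4 h, from 8 h to 12 h, the step was higher for 102 probe sets (0.178%) and lower for 71 (0.124%). The 2 steps share the 12 h arrays, so a low 12 h array raises this contrast on 2 counts. It called 577 and 748 without replicate 5 of 12 h, 12 and 14 without replicate 4 of 12 h, 138 and 24 without replicate 1 of 12 h and 67 and 60 without replicate 1 of 16 h, so its size depends on single arrays. Of the 332 rises, 17 were also higher in this contrast and 1 lower. The named ones were RSS1 (2.84, adjusted p = 4.86e-03), EXPB17 (1.58, adjusted p = 6.37e-03), KIN14R (1.39, adjusted p = 0.0393) and URH2 (1.12, adjusted p = 0.0192). Their own changes from 8 h to 12 h were -1.66, 0.30, 0.36 and 0.50, beside 1.18, 1.88, 1.75 and 1.61 from 12 h to 16 h.

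By group means, most of the other named rises had begun before 12 h and went on after 16 h. Of the 44 named genes that rose, 43 had a higher mean at 12 h than at 8 h, and 44 had a higher mean at 24 h than at 16 h. By at least 1, 28 were higher at 12 h than at 8 h and 35 higher at 24 h than at 16 h. The 12 h means join uneven arrays. At 12 h, 3 of the 44 were below the reporter level in replicate 1, 15 in replicate 4 and 30 in replicate 5. At 8 h, 32 or 33 were, so in replicate 5 most were still below it at 12 h. CYCB1-1 stood at 2.24, 3.96, 7.31 and 9.48 at 8, 12, 16 and 24 h, and EXPB2 at 4.54, 8.23, 9.95 and 10.66. EXPB2 made its largest step from 8 h to 12 h, by 3.68, and BURP2 from 16 h to 24 h, by 4.76. CSLD1, ADF6 and OsGT3 changed by 0.12, 0.01 and 0.04 from 16 h to 24 h. The mitotic list had a median change of 0.03 from 4 h to 8 h, 1.53 from 8 h to 12 h, 2.08 from 12 h to 16 h and 1.09 from 16 h to 24 h, and the replication list 0.66, 0.71, 0.09 and -0.25. Steps that share arrays are given side by side and were not correlated.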

How the data were processed

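The deposited table holds log2 signals of 36 Affymetrix rice arrays, made by the authors with GCRMA per the submitters' processing notes. The GCRMA version is not stated there. The log2 values entered the tests unchanged, after 123 AFFX and 64 RPTR probe sets were left out. The tests used limma 3.58.1 (R 4.3.3) on a model of 12 group means with empirical Bayes moderation (24 residual degrees of freedom), and p-values were adjusted over 57194 probe sets. Besides the step itself, its differences from the endosperm step and from the embryo step of 8 h to 12 h were tested. Array annotation and the RefSeq gene table of ASM3414082v1, used for names only, assigned 22436 probe sets to 1 gene (17905 genes), 95 to several and 34663 to none. Members and gene lists were chosen with earlier results of these data known, and lists were described without a test.

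Named genes were the 15 largest rises and falls among called genes with a name and non-overlapping arrays, up to 3 called members of each list, 20 sentinel genes (ADH1 was not among the names found), and the 5 largest called differences in each direction of the other contrasts among genes called in the step. Genes outside this rule are said to be named after their values were seen, or illustrate a list count. Arrays number 3 a group, which limits precision. On simulated data with 50 changed probe sets of each size, the step called 0 at a log2 change of 0.5, 49 at 1.5, 49 at 2 and 50 at 3, with 0 false calls. The contrasts with endosperm and with the preceding step gave 2 and 1 false calls. Simulated noise was independent between arrays and equally wide in all groups, unlike the uneven 12 h group. It therefore cannot show how many calls are false in the real data. Alternatives covered blocks, array subsets, moderation, level filter, centring, normalization, thresholds, leaving out each of the 6 arrays, and means over a gene's probe sets. No sequence was searched. Figures were drawn with Python 3.11.15, pandas 2.3.3, numpy 2.4.6 and matplotlib 3.10.9.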

Additional observations from a re-analysis of the deposited data

Results flagged for a closer look

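For 13 named genes the change from 12 h to 16 h in embryo differed from that in endosperm by the interaction test, with adjusted p from limma below the threshold. The difference of the steps was 3.46 for CYCB2-2, 3.42 for CYCB1-1, 3.30 for KIN12C, 2.71 for ILL3 and 2.71 for CYCB2-1 on the log2 scale. It was 2.37 for KIN10A, 2.18 for EXPA3, 1.91 for CASPL1U3, 1.83 for EXPA8, 1.79 for KIN14R, 1.73 for EXPB17, 1.59 for URH2 and 1.14 for CenH3. The smallest adjusted p was that of URH2 (8.99e-05), followed by EXPB17 (2.65e-04), and the largest that of CYCB2-2 (0.0489). In endosperm these genes had means at 12 h and 16 h below the reporter level of 3.42, with the exception of CenH3, which stood at 5.42 and 5.45.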

How the results depend on the processing

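Counts below are probe sets called higher and lower. For the step (332 and 34), the replicate block gave 346 and 68, the harvest day block 426 and 290, the embryo arrays alone 48 and 2, and the 6 arrays alone 0 and 0, also with a replicate block (1856 higher and 2367 lower at an unadjusted p below 0.05, limma). Probe sets above the median level gave 367 and 57, no minimum fold 661 and 182, and a test against a log2 difference of 0.5 gave 114 and 1. Leaving out 1 of the 6 arrays gave 176 to 551 higher and 9 to 181 lower. For the difference from endosperm (99 and 2), the replicate block gave 121 and 8, the day block 86 and 76, probe sets above the median 155 and 7, centring on the 75th percentile 142 and 2, no minimum fold 134 and 10, quantile normalization 113 and 3, the test against 0.5 gave 9 and 0, and leaving out 1 array 41 to 336 and 2 to 19. For the difference from the preceding step (102 and 71), the replicate block gave 156 and 94, the day block 30 and 19, the embryo arrays alone 6 and 3, probe sets above the median 185 and 137, no minimum fold 157 and 105, the test against 0.5 gave 1 and 1, and leaving out 1 array 12 to 577 and 14 to 748. The cause of these shifts was not tested. Same-numbered 12 h and 16 h arrays deviated from their group means with correlations of 0.37, -0.03 and 0.12, so the numbers were not taken as pairs. Of the 47 named genes called, 47 were called with the replicate block, with trend and robust moderation, with either rescaling and among probe sets above the median. The day block left 39 of the 47, a gene's probe sets averaged 43 (not EXPB17, BGLU12, PIP2-2 and MT2B), the test against 0.5 left 18, and the embryo arrays alone 6. Leaving out 1 array left 27 to 47, and 25 in all 6 such fits. No named gene changed direction while called. Signals near the reporter level limit the size of rises from background.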
